A study of Homo sapiens with 18 samples.

Results

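The 45 genes described here are the WNT ligands, their receptors and the main intracellular and target genes of the WNT pathway, chosen by name. They comprise 18 ligands, 10 Frizzled receptors, the 2 co-receptors LRP5 and LRP6, 4 genes of receptor turnover (LGR4, LGR5, RNF43 and ZNRF3), β-catenin (CTNNB1) with 3 scaffolds of its destruction complex (APC, AXIN1 and AXIN2), 4 nuclear factors (LEF1, TCF7, TCF7L1 and TCF7L2) and 3 inhibitors (DKK1, SFRP1 and NKD1). Each of the 45 had 1 row among the 23500 named rows of the RNA-seq table, and 19 were expressed, meaning that their mean log2(FPKM + 0.5) over the 4 libraries was above 1, as it was for 11134 genes in all. FPKM is the number of fragments scaled by transcript length and by the fragments mapped in the library.

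ZR751 (ZR75-1) is an oestrogen receptor-positive human breast cancer cell line. ZR751shMLL3 cells were stably transduced with a lentiviral short hairpin RNA against MLL3, the gene KMT2C, whose product places the H3K4me1 mark of enhancers, and ZR751shLucif cells carried a hairpin against luciferase as the control. Both lines were sorted for the GFP of the vector, were grown in the same medium and were used at early passages. The study asked how loss of MLL3 changes H3K4me1, binding of ERα and transcription, and each of the RNA-seq, H3K4me1 and ERα assays had 2 libraries per cell line. A single hairpin represents MLL3 loss, so the hairpin and the loss of MLL3 cannot be told apart. RNA and ChIP libraries were both described as biological replicates, for ChIP of 1 experimental repetition, and p-values measure the spread between these libraries.

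WNT ligands are secreted lipid-modified proteins that bind a Frizzled receptor together with LRP5 or LRP6. In the canonical branch this binding stops the destruction complex of APC, AXIN and the kinases GSK3 and CK1 from marking β-catenin for degradation, and β-catenin then enters the nucleus and activates genes with TCF/LEF factors. RNF43 and ZNRF3 are membrane ubiquitin ligases that remove Frizzled receptors, and LGR4 and LGR5 are receptors for R-spondins, which block these ligases. In the mammary gland the pathway supports stem and progenitor cells, and WNT4 acts there downstream of progesterone.

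The targeted gene KMT2C was at 2.34 and 6.77 FPKM in the libraries labelled ZR751shLucif and at 1.07 and 2.69 FPKM in those labelled ZR751shMLL3. The ranges overlapped, and the log2 fold change was −1.02 ± 0.54 (limma standard error, 2 libraries against 2, adjusted p = 0.629). It was −1.70 without the first ZR751shLucif library and −0.35 without the second. The paper checked the hairpin separately, by qPCR of MLL3 days after transduction, and reports a knockdown meant to leave some MLL3 expression. The RNA-seq libraries alone do not settle its size, so every direction below is between the labelled lines. All 8 luminal markers checked were above 1 FPKM in every library, and all 4 basal or myoepithelial markers (KRT5, KRT14, KRT17 and TP63) stayed below 1 FPKM in every library. Of the stromal, endothelial and leukocyte markers checked, COL1A1 (13.1 to 17.8 FPKM) and CD14 (0.266 to 1.41 FPKM, highest in ZR751shMLL3) reached 1 FPKM. The first ZR751shLucif RNA library stood apart, with correlations of 0.900 to 0.907 with the others against 0.947 to 0.969 among them. In RNA from a whole culture, fewer cells that use a gene and less RNA per cell cannot be told apart. The table holds no read counts, so the depth behind each value is unknown.

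No WNT gene differed between the lines past an adjusted p of 0.05. Among the 19 expressed ones, the ligands WNT9A and WNT7B had the highest log2 fold changes, 1.62 and 1.07. In limma's test of 2 libraries against 2, 0 of the 19 expressed WNT genes passed the adjusted threshold, where 0.00898% of all genes tested did, and the lowest adjusted p among them was 0.418. At an unadjusted p of 0.05, 3 of the 19 passed (WNT9A, WNT7B and FZD4), with 7.98% of all genes tested as background. The lines did not overlap for 5 of the 19, with 3 genes higher in both ZR751shMLL3 libraries (17.6% of all genes tested) and 2 lower in both (25.3% of all genes tested). FZD4, counted among the lower genes, passed the filter only through the controls, where it was higher, so its place in these counts is no support for a difference. Of the 19, 8 had a log2 fold change above 0 and 11 below 0, and their median was −0.05, beside −0.10 over all 11134 genes. An alternative fit added a surrogate variable drawn from the residuals of the same 4 libraries. That shrinks the residual spread by construction, so its calls are no support for a difference. With 1 surrogate variable in the fit, WNT9A and WNT7B passed the adjusted threshold (4.25% of all genes tested), and without the second ZR751shLucif library WNT9A and TCF7L1 passed (11.9%). No WNT gene passed with a replicate block (0.296%), or without the first ZR751shLucif, first ZR751shMLL3 or second ZR751shMLL3 library (0.0630%, 0.0358% and 0.0628% of genes tested).

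**Figure D1:**
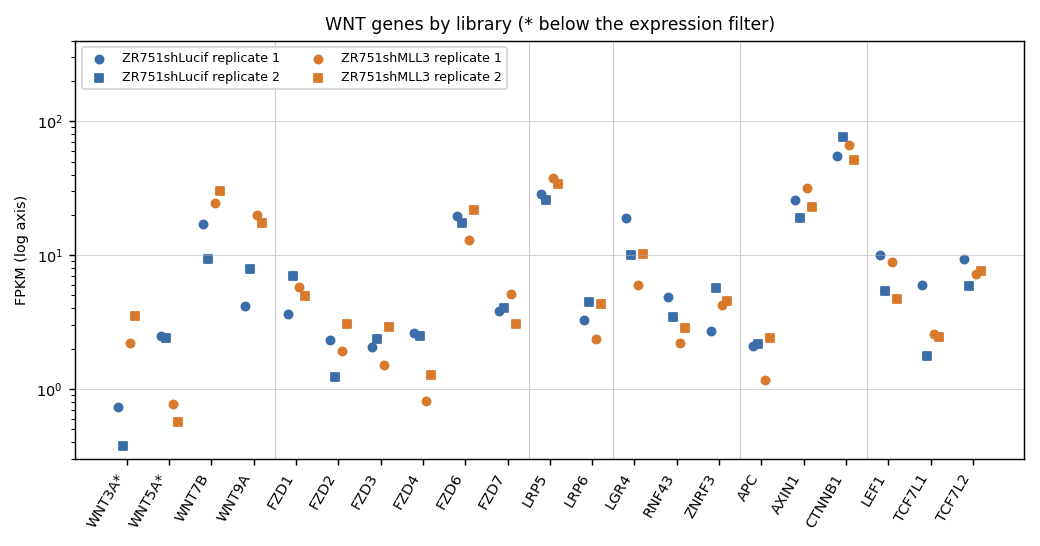
Level of each expressed WNT gene, with WNT3A and WNT5A, in the 4 RNA-seq libraries (y axis, FPKM on a log scale; blue, ZR751shLucif; orange, ZR751shMLL3; circles, replicate 1; squares, replicate 2), grouped by role with a line between roles. The orange points of WNT9A, WNT7B and WNT3A lie above the blue ones, those of WNT5A, FZD4 and RNF43 lie below, and most of the other genes overlap.

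WNT9A is a ligand of the canonical branch known from joint formation and blood stem cell development. Its levels were 4.15 and 7.82 FPKM in ZR751shLucif and 19.8 and 17.5 FPKM in ZR751shMLL3. Both ZR751shMLL3 libraries were more than 2 times as high as the higher control. The log2 fold change was 1.62 ± 0.35 (limma standard error), a 3.07-fold difference, with an unadjusted p of 0.0034 and an adjusted p of 0.418. Without the first ZR751shLucif library, which stood apart, it was 1.20.

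WNT7B, an epithelial ligand of the mammary ducts and lung, was the most abundant ligand. It measured 17.1 and 9.40 FPKM in ZR751shLucif and 24.7 and 29.9 FPKM in ZR751shMLL3. The lines did not overlap, but as ratios the 2 controls lay farther from each other than the higher control lay from the lower ZR751shMLL3 library. The log2 fold change was 1.07 ± 0.36 (adjusted p by limma = 0.595), and it was 1.48 without the first ZR751shLucif library and 0.65 without the second.

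The other 16 ligands did not pass the filter. Among them WNT3A, a canonical ligand, was at 0.728 and 0.378 FPKM in the ZR751shLucif libraries and at 2.21 and 3.51 FPKM in ZR751shMLL3. Both ZR751shMLL3 libraries were above both controls, at levels close to those of the least abundant expressed genes. Fitted with no filter on low values, its log2 fold change on the log2(FPKM + 0.5) scale, which understates changes at such levels, was 1.67 (limma, unadjusted p = 0.0073, adjusted p = 0.436 over 18215 genes).

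WNT5A, the classical ligand of the non-canonical branch, went the other way and is named here after its values were seen. It was at 2.47 and 2.41 FPKM in the ZR751shLucif libraries and at 0.766 and 0.565 FPKM in ZR751shMLL3. The libraries of each line lay close together and the lines were far apart. With no filter, the log2 fold change was −1.34 (limma, unadjusted p = 0.0014, adjusted p = 0.436 over 18215 genes). Of all 26 WNT genes below the filter, WNT9B, FZD9 and FZD10 were listed at 0 in every library, 21 stayed below 1 FPKM in every library, and the 5 that reached 1 FPKM in at least 1 library were WNT3A, WNT5A, WNT3, TCF7 and NKD1. Among the 26, 7 were higher and 3 lower without overlap, beside 15.0% and 18.2% of all genes below the filter with a value above 0. The pathway's usual feedback readout AXIN2 was below 1 FPKM in every library (0.548 and 0.496 in ZR751shLucif, 0.344 and 0.296 in ZR751shMLL3), as were LGR5, DKK1 and SFRP1. Summed over the 18 ligands, 27.2 and 22.5 FPKM in ZR751shLucif stood beside 51.5 and 55.8 FPKM in ZR751shMLL3, with WNT7B and WNT9A as the main contributors.

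WNT9A (chr1:228106357-228135633, minus strand) and WNT3A (chr1:228194699-228248972, plus strand; both in hg19) are neighbours that point away from each other, with 59066 bp between their starts. Their promoters, 250 bases before to 50 after the start, are shown because the genes are adjacent and both were higher in ZR751shMLL3. The sequences are from RefSeq on GRCh38.p14, 5′ to 3′ on the strand of the gene, at chr1:227947883-227948182 for WNT9A and chr1:228006748-228007047 for WNT3A. Capitals mark GGGCGG or its complement CCGCCC, the GC box that SP1 binds.
WNT9A promoter: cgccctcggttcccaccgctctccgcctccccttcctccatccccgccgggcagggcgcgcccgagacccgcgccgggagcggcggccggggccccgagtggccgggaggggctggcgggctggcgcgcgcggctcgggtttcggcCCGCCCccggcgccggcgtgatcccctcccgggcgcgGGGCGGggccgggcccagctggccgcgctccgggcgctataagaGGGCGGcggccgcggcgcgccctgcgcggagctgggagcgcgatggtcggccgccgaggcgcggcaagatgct
WNT3A promoter: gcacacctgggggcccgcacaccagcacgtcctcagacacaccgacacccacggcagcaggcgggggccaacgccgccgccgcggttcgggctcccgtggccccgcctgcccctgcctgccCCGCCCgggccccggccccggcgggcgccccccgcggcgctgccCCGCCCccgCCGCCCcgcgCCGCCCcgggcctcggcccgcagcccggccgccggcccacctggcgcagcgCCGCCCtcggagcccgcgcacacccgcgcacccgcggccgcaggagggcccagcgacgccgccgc
The WNT9A promoter held 3 GC boxes and the WNT3A promoter 5, and G and C made up 83.0% and 86.0% of their bases, where the median over 27305 promoters was 58.3% and 44.6% of promoters held a GC box. Neither held CTTTGAT, the core TCF/LEF site, on either strand (2.64% of promoters did), or GGTCA, the ERα core motif, on either strand (37.7% did). The promoter table matched 31 of the 45 WNT genes and 12 of the 19 expressed ones. Of these 12, 9 held a GC box, 1 a core motif and 0 a TCF/LEF core. The median share of G and C over the 12 was 69.8%. Among them FZD4, which was lower in ZR751shMLL3, had 6 GC boxes and 79.7% G and C.

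Of the Frizzled receptors, 6 were expressed: FZD6 was the most abundant, at 13.1 to 21.8 FPKM over the 4 libraries, and FZD1, FZD2, FZD3, FZD4 and FZD7 lay between 0.807 and 6.98 FPKM. FZD4, the receptor for norrin and WNT in retinal vessels, was the only one whose lines did not overlap. It was at 2.62 and 2.49 FPKM in the ZR751shLucif libraries and at 0.807 and 1.27 FPKM in ZR751shMLL3. The 2 controls lay close together and both ZR751shMLL3 libraries were below them. The log2 fold change was −1.01 ± 0.29 (limma, unadjusted p = 0.0118, adjusted p = 0.518), and the gene failed the filter when either control library was left out, so the filter itself favoured a difference in this direction.

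FZD2, a receptor of both branches, had the third highest log2 fold change of the expressed WNT genes, 0.41 ± 0.36 (adjusted p by limma = 0.720). Its levels were 2.31 and 1.24 FPKM in ZR751shLucif and 1.92 and 3.07 FPKM in ZR751shMLL3, so the lines overlapped. FZD1, FZD3, FZD6 and FZD7 had log2 fold changes between −0.12 and 0.07, smaller than their standard errors of 0.32 to 0.36. The summed level of the 10 Frizzled genes was 34.9 and 35.4 FPKM in ZR751shLucif and 29.8 and 38.2 FPKM in ZR751shMLL3, which overlapped.

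LRP5, the more abundant co-receptor, was at 28.4 and 25.8 FPKM in the ZR751shLucif libraries and at 37.6 and 34.2 FPKM in ZR751shMLL3. The lines did not overlap, and the log2 fold change was 0.40 ± 0.26 (adjusted p by limma = 0.660). It became −0.04 once the trend of each library on transcript GC content and length was removed, so the direction flips with that scaling. LRP6 was at 2.38 to 4.48 FPKM over the 4 libraries with a log2 fold change of −0.22 ± 0.35.

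Of the receptor turnover genes, RNF43 was the one whose lines did not overlap. It was at 4.85 and 3.48 FPKM in the ZR751shLucif libraries and at 2.22 and 2.86 FPKM in ZR751shMLL3, a log2 fold change of −0.61 ± 0.30 (adjusted p by limma = 0.629). The other ligase, ZNRF3, lay between 2.72 and 5.72 FPKM with both extremes in ZR751shLucif, and its log2 fold change was 0.12 ± 0.37. LGR4 was at 18.9 and 9.94 FPKM in the ZR751shLucif libraries and at 5.94 and 10.2 FPKM in ZR751shMLL3. Its second value in each line nearly coincided, so the lines overlapped despite a log2 fold change of −0.78 ± 0.42 (adjusted p by limma = 0.629). Without the first ZR751shLucif library it was −0.33.

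β-catenin itself had the highest level of all the WNT genes, at 55.2 and 75.9 FPKM in ZR751shLucif and 66.6 and 51.7 FPKM in ZR751shMLL3. The lines overlapped fully, with a log2 fold change of −0.14 ± 0.31. The scaffold AXIN1 lay between 18.9 and 31.7 FPKM and APC between 1.17 and 2.40 FPKM, with log2 fold changes of 0.27 ± 0.32 and −0.26 ± 0.34. Among the nuclear factors, LEF1 lay between 4.72 and 10.1 FPKM, TCF7L2 between 5.86 and 9.30 FPKM and TCF7L1 between 1.78 and 5.97 FPKM. The lines overlapped for all 3 of them. TCF7L1 had the widest control values, 5.97 against 1.78 FPKM, and its log2 fold change of −0.36 ± 0.50 became 0.40 without the first ZR751shLucif library and −1.11 without the second.

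The differences moved with transcript GC content over all genes and over the WNT genes. Across the 10903 genes tested with a known GC content, Spearman's rho between GC content and the log2 fold change was 0.521, and across the 19 expressed WNT genes it was 0.563, a description over genes that share the same 4 libraries. WNT9A, WNT7B and LRP5 have transcripts of 59.7%, 63.0% and 62.9% GC, beside 46.2% for FZD4 and 42.2% for LGR4. With the GC and length trends removed, the log2 fold change was 1.27 for WNT9A, 0.67 for WNT7B, −0.99 for FZD4, −0.70 for RNF43 and −0.61 for LGR4. The sign turned for LRP5 (−0.04), AXIN1 (−0.11), ZNRF3 (−0.11), FZD3 (0.16), FZD6 (0.21), FZD7 (−0.27), CTNNB1 (0.03) and TCF7L2 (0.13). WNT3A and WNT5A, with transcripts of 66.8% and 42.3% GC, were below the filter, so the trend removal did not cover them. The part of GC content in each gene's difference was not tested.

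**Figure D2:**
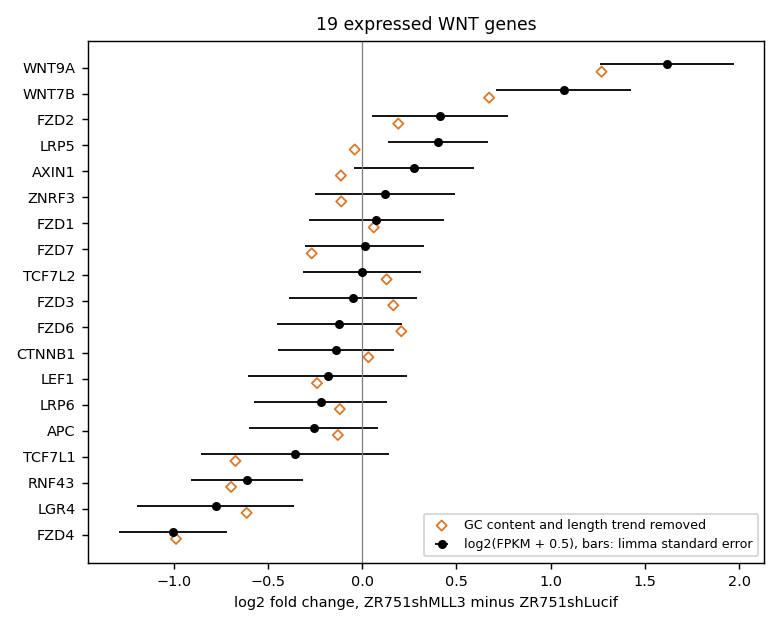
Log2 fold change of the 19 expressed WNT genes, ZR751shMLL3 minus ZR751shLucif (x axis; black points with limma standard errors over 2 libraries against 2; open orange diamonds, the same after removal of each library's trend on transcript GC content and length). WNT9A moves from 1.62 to 1.27 and FZD4 from −1.01 to −0.99, while LRP5 moves from 0.40 to −0.04.

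A wider list held 73 other genes of the WNT pathway. Of these, 72 had a row and 40 were expressed. By limma's adjusted p, 0 of the 40 passed (0.00898% of all genes tested). At an unadjusted p of 0.05, 2 were higher (3.67% of all genes tested) and 2 lower (4.31% of all genes tested). Without overlap, 10 were higher in ZR751shMLL3 (17.6% of all genes tested) and 7 lower (25.3%). The median log2 fold change was 0.07.

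The lowest log2 fold changes of this list with an unadjusted p under 0.05 were in CD44 and SOX9, which are TCF/LEF targets in intestinal epithelium. CD44, an adhesion receptor for hyaluronan, was at 23.4 and 14.1 FPKM in the ZR751shLucif libraries and at 6.30 and 5.68 FPKM in ZR751shMLL3, a log2 fold change of −1.53 ± 0.33 (adjusted p by limma = 0.418). SOX9, a transcription factor of progenitor cells, was at 19.4 and 14.6 FPKM against 8.81 and 7.98 FPKM, a log2 fold change of −0.97 ± 0.28 (adjusted p by limma = 0.529). In both genes the ZR751shMLL3 libraries nearly coincided and lay well below both controls.

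The corresponding genes in the other direction were BCL9L and KREMEN2. BCL9L, a co-activator that bridges β-catenin to PYGO proteins, was at 20.7 and 24.9 FPKM in the ZR751shLucif libraries and at 50.3 and 47.0 FPKM in ZR751shMLL3, a log2 fold change of 1.08 ± 0.27 (adjusted p by limma = 0.475). KREMEN2, a receptor for the DKK inhibitors, was at 40.9 and 51.5 FPKM against 94.6 and 81.2 FPKM, a log2 fold change of 0.93 ± 0.28 (adjusted p by limma = 0.556). Both have GC-rich transcripts (62.6% and 68.8%), and with the GC and length trends removed their log2 fold changes were 0.55 and 0.64, while those of CD44 and SOX9 were −1.42 and −1.01.

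H3K4me1 was read next around the expressed WNT genes, since MLL3 places this mark. A peak was called reproducible at an irreproducible discovery rate (IDR, the expected share of irreproducible peaks among those kept) of at most 0.1 between the 2 replicate lists of a line, and it was counted for a gene when it lay within 100 kb of any base of the gene. The windows also hold other genes, and position alone ties a peak to a WNT gene. The lists differed in quality: the H3K4me1 lists held 28599 to 192201 peaks at a false discovery rate of 0.01, with the fewest in the first ZR751shMLL3 library, and the ERα lists 764 to 98579. In the whole genome, 31653 reproducible H3K4me1 peaks were found in ZR751shLucif and 8621 in ZR751shMLL3. These sets were refitted here, and at the same threshold the study's supplement gives fewer peaks in each line.

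Reproducible H3K4me1 peaks around the WNT genes were far fewer in ZR751shMLL3, as they were around other genes. The 19 windows held 124 reproducible peaks in ZR751shLucif and 27 in ZR751shMLL3. In ZR751shLucif 16 of the 19 genes had at least 1 peak (63.9% of 10903 expressed genes), and in ZR751shMLL3 9 had (34.2%). None of the 19 had more peaks in ZR751shMLL3 (3.42% of expressed genes), 16 had fewer (59.1%) and 3 had none in either line. The median was 6 peaks per WNT gene in ZR751shLucif and 0 in ZR751shMLL3, beside 1 and 0 over all expressed genes, whose spans were shorter (median 31271 bp against 65356 bp). Many neighbouring peaks overlapped each other, and merged into regions, a count added after the data were seen, they made 83 regions in ZR751shLucif and 26 in ZR751shMLL3. Counted from peaks among the 50000 top-ranked of both replicates, 2 of the 19 genes had more in ZR751shMLL3 (18.2% of expressed genes) and 11 fewer (36.5%). Within 20 kb of the gene, 1 had more (3.20%) and 10 fewer (38.5%).

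The single libraries differed less when lists of equal length were compared. Among the 50000 top-ranked peaks of each library, the 19 windows held 177 and 187 in ZR751shLucif and 172 and 160 in ZR751shMLL3. Each ZR751shMLL3 library was below each control, with means of 166 ± 8.49 against 182 ± 7.07 (SD, n = 2; exact two-sided permutation test, p = 0.333, the smallest that 2 against 2 can give). Among the 20000 top-ranked peaks the windows held 66 and 85 against 75 and 55, so the lines overlapped (exact two-sided permutation test, p = 0.667). At a false discovery rate of 0.01 the same windows held 476 and 592 peaks in ZR751shLucif and 102 and 333 in ZR751shMLL3. Of the 124 reproducible ZR751shLucif peaks, 36 overlapped a reproducible peak of ZR751shMLL3, and 98 overlapped a peak of any strength in both ZR751shMLL3 lists. Those lists held 300000 peaks each, weak ones included. The same shares over all H3K4me1 peaks were not computed, so these counts describe the 19 windows only.

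**Figure D3:**
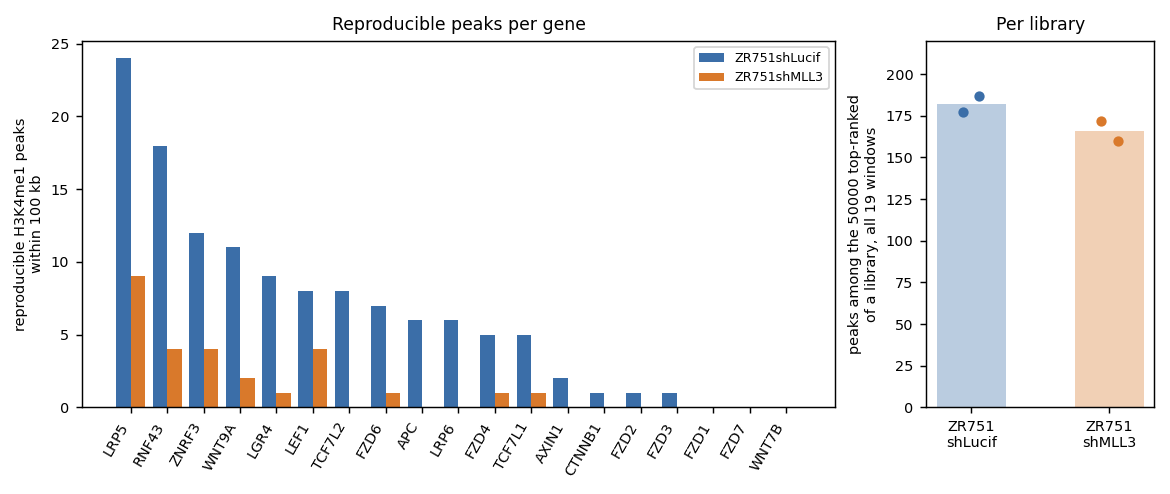
Left, reproducible H3K4me1 peaks within 100 kb of each expressed WNT gene (y axis, number of peaks; blue, ZR751shLucif; orange, ZR751shMLL3), 124 against 27 in all, with no gene higher in ZR751shMLL3. Right, the number of peaks in all 19 windows among the 50000 top-ranked peaks of each library (points) with the mean of each line (bars), from 160 to 187.

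Among the expressed WNT genes, LRP5, RNF43 and ZNRF3 had the most reproducible H3K4me1 peaks. LRP5 had 24 in ZR751shLucif and 9 in ZR751shMLL3, and most of these lay downstream of the gene. The strongest of them, chr11:68291379-68292342, ranked 164 and 108 in the ZR751shLucif libraries and 1708 and 10260 in the ZR751shMLL3 libraries, where rank 1 is the strongest peak of a library. RNF43 had 18 peaks in ZR751shLucif, inside the gene for the most part, and 4 in ZR751shMLL3. ZNRF3 had 12 and 4. The ZNRF3 peak at chr22:29217553-29218531, upstream of the gene, was kept in both lines with ranks of 944 and 1265 in ZR751shLucif and 11251 and 585 in ZR751shMLL3. A peak downstream of the gene at chr22:29491475-29493218 ranked 627 and 3103 in ZR751shLucif and 237887 and 29521 in ZR751shMLL3.

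The WNT genes that led the RNA differences varied in H3K4me1. WNT9A had 11 reproducible peaks in ZR751shLucif and 2 in ZR751shMLL3, and WNT3A had 19 and 4, and every WNT9A peak also lay in the window of WNT3A. One of the shared sites, chr1:228231449-228232723, lies inside WNT3A and 96.6 kb upstream of WNT9A, and it ranked 8405 and 814 in ZR751shLucif and 1174 and 1305 in ZR751shMLL3. WNT7B had 0 reproducible peaks in either line, and its best ranks in the 4 lists were between 39561 and 62287. FZD4 had 5 and 1, and WNT5A, which was below the filter, had 5 and 0.

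Reproducible ZR751shMLL3 peaks with no reproducible ZR751shLucif peak under them numbered 8 of 27, with no share over the whole genome computed. They lay near LRP5 (2 peaks) and near FZD4, FZD6, LEF1, LGR4, RNF43 and ZNRF3 (1 peak each). The LEF1 one, chr4:108993008-108994093 inside the gene, ranked 627 and 46821 in ZR751shMLL3 and 201393 and 124433 in ZR751shLucif, so the 2 ZR751shMLL3 libraries differed widely. The RNF43 one, chr17:56490762-56491900 near the start of the gene, ranked 6788 and 7256 in ZR751shMLL3 and 182459 and 41675 in ZR751shLucif.

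ERα, the oestrogen-activated receptor that drives this cell line, had few reproducible sites near the WNT genes. At an IDR of at most 0.7, a loose threshold, the genome held 1223 reproducible ERα peaks in ZR751shLucif and 1216 in ZR751shMLL3. The 19 windows held 6 and 2 of them. In ZR751shLucif 5 of the 19 genes had a peak (9.23% of expressed genes), and in ZR751shMLL3 2 had (7.81%). One gene, AXIN1, had more in ZR751shMLL3 (5.26% of expressed genes), and 5 had fewer (6.78%): FZD1, LEF1, RNF43, WNT9A and ZNRF3. At an IDR of at most 0.05 the windows held 3 and 1, with 0 genes having more in ZR751shMLL3 (1.37% of expressed genes) and 2 fewer (1.30%). The study's supplement names more than one threshold for ERα. At 0.7 it gives more ERα peaks in each line than were found here, with more in ZR751shMLL3 than in ZR751shLucif. From pooled reads, at another threshold, its order is the reverse. At an IDR of at most 0.2, added after the data were seen, the windows also held 3 and 1, with 0 genes having more (1.70%) and 2 fewer (2.13%). At a false discovery rate of 0.01 in both replicates 0 had more (1.09%) and 2 fewer (3.66%), and within 20 kb 1 had more (2.50%) and 2 fewer (3.49%). The counts are too small to compare the lines, and among the 50000 top-ranked peaks of each library the windows held 102 and 116 in ZR751shLucif and 114 and 74 in ZR751shMLL3, which overlapped (exact two-sided permutation test, p = 0.667). None of the 6 or 2 sites lay on a reproducible H3K4me1 peak of its own line, as 16.4% and 4.03% of all reproducible ERα peaks did.

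The sequences of the sites that carry this result follow, 100 bases to each side of the peak summit on the plus strand of hg19. Capitals mark the ERα core motif GGTCA or its complement TGACC, searched on both strands, of which the full oestrogen response element holds both, GGTCA and then TGACC, with 3 bases between them.
ZNRF3 site in both lines, chr22:29209790-29209990: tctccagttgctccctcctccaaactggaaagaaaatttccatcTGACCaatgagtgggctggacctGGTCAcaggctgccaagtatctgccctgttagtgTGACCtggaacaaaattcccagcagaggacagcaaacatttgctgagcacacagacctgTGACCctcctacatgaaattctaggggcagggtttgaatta
ZNRF3 site in ZR751shLucif, chr22:29218935-29219135: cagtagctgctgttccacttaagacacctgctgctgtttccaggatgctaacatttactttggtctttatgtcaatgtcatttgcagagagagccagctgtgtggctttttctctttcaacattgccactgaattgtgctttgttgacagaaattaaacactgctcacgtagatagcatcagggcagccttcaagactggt
LEF1 site in ZR751shLucif, chr4:108974613-108974813: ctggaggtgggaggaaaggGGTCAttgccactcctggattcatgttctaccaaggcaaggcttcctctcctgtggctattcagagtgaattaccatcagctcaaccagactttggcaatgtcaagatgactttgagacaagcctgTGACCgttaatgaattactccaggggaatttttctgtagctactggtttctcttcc
WNT9A and WNT3A site in ZR751shLucif, chr1:228175314-228175514: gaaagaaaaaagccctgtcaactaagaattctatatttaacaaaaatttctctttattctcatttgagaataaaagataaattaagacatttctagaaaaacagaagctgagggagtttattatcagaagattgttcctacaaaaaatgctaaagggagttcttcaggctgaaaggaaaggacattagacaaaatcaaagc
AXIN1 site in ZR751shMLL3, chr16:366880-367080: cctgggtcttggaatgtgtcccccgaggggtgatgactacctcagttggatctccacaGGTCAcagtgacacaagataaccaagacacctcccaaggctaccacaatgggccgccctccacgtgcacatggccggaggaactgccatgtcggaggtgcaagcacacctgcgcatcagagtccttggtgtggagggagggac
The first ZNRF3 site held 4 core motifs, the LEF1 site 2, the AXIN1 site 1, and the other 2 printed sites 0. Only exact matches were counted, and the AXIN1 site reads GGTCAcagtgaca, which differs from the full element only in its last base. The FZD1 and RNF43 sites, which are not printed, also held 0 core motifs. None of these windows held the full element, which was in 6.21% of reproducible ERα peaks of ZR751shLucif and 9.29% of those of ZR751shMLL3, and in 0 of the windows of the same size 1000 bases away. A core motif was in 40.5% of the peaks in each line and in 25.4% and 24.6% of those neighbouring windows. The ZNRF3 and LEF1 sites had an IDR of at most 0.05. Among all ERα peaks at that IDR, the full element was in 26.6% for ZR751shLucif and 32.5% for ZR751shMLL3. A core motif was in 87.8% and 83.9% of them.

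The ERα site near an expressed WNT gene that was reproducible in both lines was the first ZNRF3 site, 69.7 kb upstream in an intron of a non-coding gene. It ranked 1313 and 74 in the ZR751shLucif libraries and 142 and 389 in the ZR751shMLL3 libraries, and all 4 lists held it. The second ZNRF3 site, 60.5 kb upstream, ranked 547 and 189 in ZR751shLucif and 401 in the first ZR751shMLL3 library and was not listed in the second. The LEF1 site, in an intron 115.4 kb into the gene, ranked 99 and 276 in ZR751shLucif and 450 and 61515 in ZR751shMLL3, so it was strong in 3 of the 4 libraries. At the second ZNRF3 site and the LEF1 site the weak or missing peak was in the second ZR751shMLL3 library.

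The site between WNT9A and WNT3A, 39.8 kb upstream of the former and 19.3 kb upstream of the latter, ranked 14430 and 4382 in ZR751shLucif and was listed in neither ZR751shMLL3 library. It is intergenic, and its IDR of 0.319 put it among the weaker calls. WNT3A also had a ZR751shMLL3 site of an IDR of 0.678, over an exon of ARF1, 90.9 kb downstream of the WNT3A start. This site ranked 11796 and 40257 in ZR751shMLL3 and was listed in neither ZR751shLucif library. WNT5A had 0 reproducible ERα peaks in ZR751shLucif and 1 in ZR751shMLL3 at an IDR of at most 0.7. At an IDR of at most 0.05 it had 0 in both. The AXIN1 site, in an intron, had an IDR of 0.441. It ranked 1486 and 29288 in ZR751shMLL3 and 711 in the second ZR751shLucif library, and was not listed in the first. The first ZR751shLucif list held 156481 ERα peaks of median width 204 bp, beside 299403 to 300000 of 310 to 620 bp in the others. Being not listed therefore does not mean the same in every library. The RNF43 site, in an intron, had an IDR of 0.385 and ranked 246 and 41069 in ZR751shLucif. The FZD1 site, downstream of the gene, had an IDR of 0.699 and ranked 40716 and 6200 there. Neither was listed in ZR751shMLL3.

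**Figure D4:**
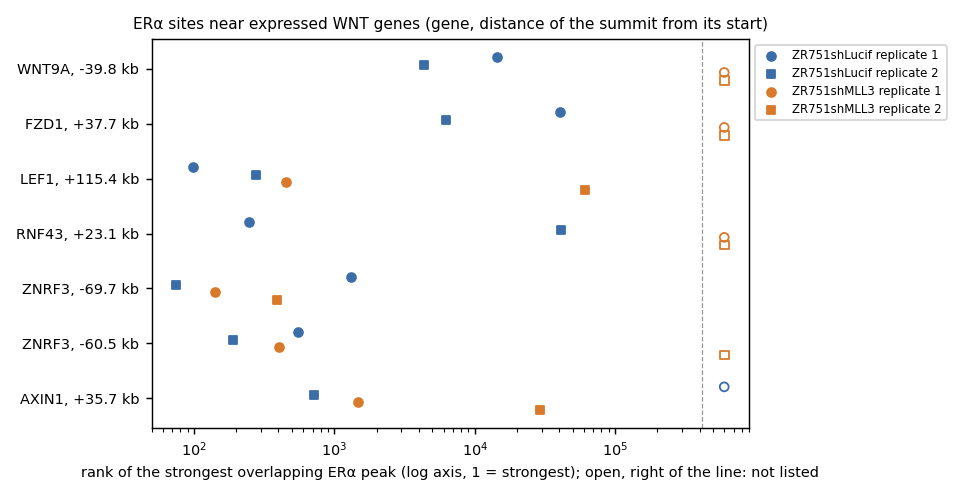
Rank of the strongest overlapping ERα peak in each of the 4 libraries at the 7 ERα sites near expressed WNT genes (x axis, log scale, 1 is the strongest peak of a library; blue, ZR751shLucif; orange, ZR751shMLL3; circles, replicate 1; squares, replicate 2; open symbols right of the dashed line, not listed). The ZNRF3 site 69.7 kb upstream is in all 4 lists, and the WNT9A, FZD1 and RNF43 sites are in the ZR751shLucif lists only.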

How the data were processed

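Per the labels, RNA-seq, H3K4me1 and ERα libraries of ZR751shLucif and ZR751shMLL3 cells were grouped as 2 per line and assay. The authors aligned RNA reads to hg19 with TopHat2 2.0.13 and deposited FPKM values scaled by Cuffnorm 2.2.1 (1 row per RefSeq gene). They aligned ChIP reads with BWA 0.7.5a-r405 and called peaks per library with SPP against input. Each deposited peak list gives a signal value, used for ranks, and a −log10 false discovery rate by the authors. SP1 lists were not used here. The 45 WNT genes, the wider pathway list and the tests were chosen with earlier results of these data known.

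RefSeq identifiers were matched to symbols, and 606 of 23500 rows had none. A last row with no name was dropped. The 11134 genes with a mean log2(FPKM + 0.5) above 1 were fitted with limma 3.58.1 (R 4.3.3), without covariates, and adjusted by Benjamini-Hochberg. Reproducible peaks came from a Gaussian copula mixture on the ranks of matched peaks, checked on simulated data, as was the limma fit. Spans and GC content were taken from GENCODE v44 lifted to GRCh37, which is hg19. Printed in full were WNT3A, expressed WNT genes without overlap or with an unadjusted p under 0.05, and the 3 largest log2 fold changes each way. Also printed were the 2 largest each way of the wider list, the 3 expressed genes with most H3K4me1 peaks and those with peaks gained. Depth limits precision: FPKM carries no read counts, and the peak lists carry ranks. Alternatives were other pseudocounts, filters and scalings, a replicate block, a surrogate variable, left-out libraries, and other peak thresholds, overlaps and windows.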

Additional observations from a re-analysis of the deposited data

How the results depend on the processing

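Genes called over all genes numbered 1 as reported, 0 with no filter, 0 with GC content and length trends removed, 473 with 1 surrogate variable and 4 to 1333 without 1 library. The 1333 came without the second ZR751shLucif library, which leaves the library that stood apart as the lone control, assumed to vary like the others. WNT genes called went from 0 to 2 with the surrogate variable (WNT9A and WNT7B, limma adjusted p = 0.010 and 0.038, with 4.25% of all genes called) and to between 0 and 3 without 1 library (WNT9A, TCF7L1 and WNT3A without the second ZR751shLucif library, with 11.9% of all genes called; WNT3A passed the filter there only because a low control was left out, so its call is no support). The surrogate variable came from the residuals of the same libraries and left the log2 fold changes of WNT9A and WNT7B unchanged. It shrinks the residual spread by construction, so its calls are no support. The median log2 fold change of the WNT genes, −0.05 as reported, was 0.055 with no filter and 0.27 with a filter at 3 (7 genes expressed). It was −0.11 with the trends removed and −0.020 to 0.045 without 1 library. LRP5 turned to −0.040 with the trends removed. ZNRF3, 0.12 as reported, was −0.11 with the trends removed and −0.36 without the first ZR751shLucif library. LEF1, −0.18 as reported, was 0.23 without that library or without the second ZR751shMLL3 library, and AXIN1 was −0.11 with the trends removed.

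The replicate numbers are not stated to pair the libraries, and deviations of same-numbered libraries correlated at 0.037 over 2 pairs. With a replicate block 33 genes were called in all, and 0 WNT genes.

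Peaks near the WNT genes are given as ZR751shLucif and ZR751shMLL3. For H3K4me1 the counts of 124 and 27 became 74 and 13 at an IDR of 0.05, 276 and 50 at a false discovery rate of 0.01 in both replicates, 74 and 15 with a stricter overlap between replicates, 53 and 11 within 20 kb, 73 and 16 within 100 kb of the start, and 83 and 43 among the 50000 top-ranked of both replicates. There 2 genes had more peaks in ZR751shMLL3 (18.2% of expressed genes) and 11 fewer (36.5%), and within 20 kb 1 had more (3.20%) and 10 fewer (38.5%). The per-library difference of −16 among the top 50000 was −10.5 among the top 20000, where the lines overlapped. For ERα the counts of 6 and 2 became 3 and 1 at an IDR of 0.05 and of 0.2, with 0 genes having more and 2 fewer, 4 and 1 at the false discovery rate, with 0 having more and 2 fewer, and 2 and 1 within 20 kb, with 2 fewer. The difference in top-ranked ERα peaks, −15 as reported, was −35 to 5 without 1 library, positive without the second ZR751shMLL3 library. The cause of each change was not tested.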
